A study of Homo sapiens with 4 samples.

Results

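The genes described here were 10 genes of the Polycomb repressive complex PRC2 and of the DNA methylation machinery, out of 28412 genes in the expression table. They were chosen by name: EZH1, EZH2, EED and SUZ12 of PRC2, the DNA methyltransferases DNMT1, DNMT3A and DNMT3B, the methylation cofactor UHRF1, and the demethylating enzymes TET2 and TET3. RNA-seq had been performed on 4 libraries of cells that the labels call NB4, a human acute promyelocytic leukemia line. In 2 libraries the cells had the control genotype and carried the vector sh-NC, and in 2 they were an LDB1 knockdown that carried sh-LDB1. The labels describe the control cells as untreated, while the study's text says that they received the control vector. The study's methods describe lentiviral Plko.1 vectors and puromycin for infected cells, with 3 different shRNAs designed for human LDB1. Which of them was used for these libraries is not stated in the labels. No time after infection was given in the sources used here. The labels do not say that replicates were separate cultures, so the p-values measure the spread between these libraries, which may be technical.

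PRC2 places methyl groups on lysine 27 of histone H3, a mark of repressed chromatin. EZH2 or its relative EZH1 is the catalytic subunit, and EED and SUZ12 hold the complex together. DNMT1 copies DNA methylation onto the new strand after replication, guided by UHRF1, DNMT3A and DNMT3B methylate previously unmarked sites, and the TET enzymes oxidise the methyl group as a step to its removal. Several of these genes, DNMT3A, TET2 and EZH2 among them, are recurrently mutated in myeloid malignancies. RNA-seq of transcripts measures neither histone nor DNA methylation.

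Levels were given as FPKM, fragments per kilobase of gene length after scaling for depth. LDB1, an adaptor of transcription factor complexes, checks the labels. It was at 135.1 and 120.1 FPKM in sh-NC replicates 1 and 2, and at 10.25 and 9.475 FPKM in sh-LDB1 replicates 1 and 2. The sh-LDB1 mean was 7.73% of the sh-NC mean (log2 fold change -3.56, SE 0.0766, limma adjusted p = 6.93e-05). The libraries held 14522204 to 16849256 recovered reads. The cell label was checked against markers. The summed level of 8 granulocytic markers was 11.86 to 12.93 FPKM in sh-NC and 38.1 to 41.87 FPKM in sh-LDB1, and ELANE, neutrophil elastase, was at 0 in 3 of the 4 libraries. MPO and CTSG were also listed but were not found by these names in the expression table, so no level is given for them. The summed level of 12 erythroid markers was 3969 and 4124 FPKM in sh-NC and 386.8 and 350.8 FPKM in sh-LDB1, so markers of another lineage than the label's were abundant and moved with the groups. The erythroid markers that passed the filter, 11 of 12, all fell. The 5 lymphoid markers in the table summed to 22.61 to 25.21 FPKM in sh-NC and 49.06 to 51.75 FPKM in sh-LDB1, most of it CD3D. The part of these marker changes in the results below was not tested. In bulk RNA, fewer cells of a type and less RNA per cell cannot be told apart.

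To investigate how the Polycomb and DNA methylation genes responded to LDB1 knockdown, sh-LDB1 was compared with sh-NC. Results showed that 8 of the 10 genes fell: EZH1, EZH2, EED, SUZ12, DNMT1, DNMT3A, DNMT3B and UHRF1 (limma adjusted p below 0.05, fitted over all genes whose mean reached 1 FPKM). Among the 13300 genes tested, 37.4% were called lower and 29.9% were called higher. By limma 0 of the 10 genes were called higher, and also 0 at an unadjusted p below 0.05, while limma without the variance trend and voom on recovered reads each called 1 higher, TET2. TET2 and TET3 were not called in the fit with the trend. All 10 passed the filter on low values. EZH2, DNMT3A and DNMT3B fell beyond 2-fold, against 10.3% of all genes tested, and 0 of the 10 rose beyond 2-fold, against 9.50% of all genes tested. A limma test against the 2-fold limit itself called 0 of the 3, with EZH2 at an adjusted p of 0.0518, DNMT3B at 0.0658 and DNMT3A at 0.442. The median log2 fold change of the 10 genes was -0.74, and that of all genes tested was -0.08. Fold changes are on the log2(FPKM + 1) scale, which understates the change of low genes.

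The scaling of the libraries shifts the changes of all genes together. With the libraries rescaled to equal summed FPKM, the median of all genes shifted by 0.147, and calls in the lower direction made up 45.4% of all calls, against 55.6% as deposited and 48.7% after scaling to total recovered reads. The 8 falls kept their direction and their call under both scalings. TET3 turned from -0.12 to 0.04 with equal summed FPKM and was not called under either scaling.

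**Figure D1:**
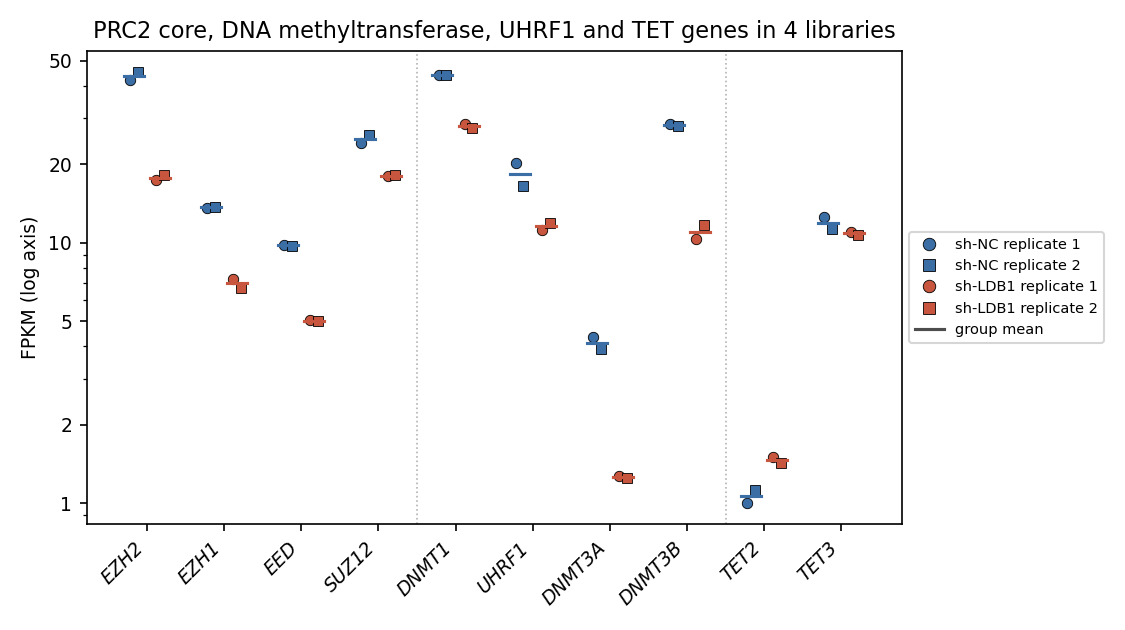
Level of each of the 10 genes in the 4 libraries, in FPKM on a log axis, with blue for sh-NC, red for sh-LDB1, circles for replicate 1, squares for replicate 2 and a line at each group mean. The red symbols lie below the blue ones for 9 genes, from EZH2 (17.35 and 18.22 against 42.16 and 45.12 FPKM) to TET3 (11 and 10.73 against 12.55 and 11.33 FPKM), and above them for TET2. The share of all genes tested whose groups also lie apart was not counted, so the separation is a description only.

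**Figure D2:**
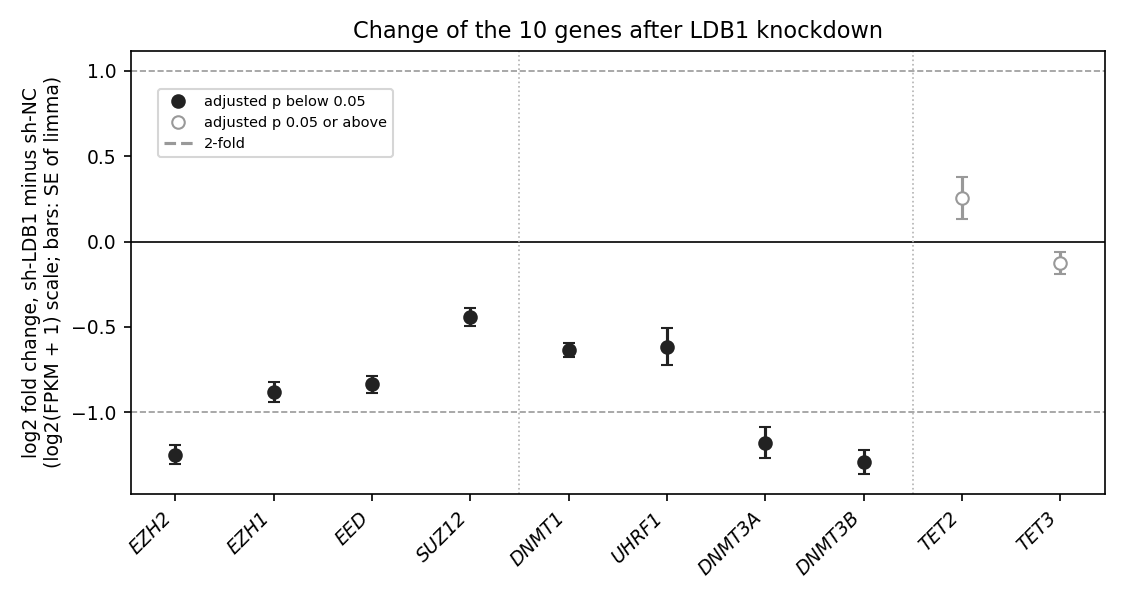
Log2 fold change of each gene, sh-LDB1 minus sh-NC on the log2(FPKM + 1) scale, with the SE of limma as bars, filled points for an adjusted p below 0.05, and dashed lines at a 2-fold change. EZH2, DNMT3A and DNMT3B lie beyond the lower line at -1.25, -1.18 and -1.29, and the open points are TET2 and TET3.

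E2F factors drive many genes of DNA replication, so the start sites of the 10 genes were searched for the E2F letters TTTGGCGC, TTTGCCGC, TTTCGCGC and TTTCCCGC on both strands. RefSeq start sites on GRCh38.p14 gave 20 windows for the 10 genes, each from 250 bases before the start to 50 bases after it. Matches were found in 6 windows of 5 genes, all among the 8 that fell. DNMT3A, DNMT3B and EED also fell but held no match, and TET2 and TET3 held none either. Whether the letters go with the falls was not tested. The same letters were also searched in the replication genes described further on. Each match in the 10 genes is shown within 30 bases of sequence on the strand of the gene, in capitals.
EZH1: gcggggttttgGCGGCAAAtgacagtagtg
EZH2: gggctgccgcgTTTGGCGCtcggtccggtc
SUZ12: cgacccctaatTTTCCCGCgaattcagttc
DNMT1: catcggtttccGCGCGAAAagccggggcgc
UHRF1, first start: gccgagttttcGCGGGAAAaaaatcagagc
UHRF1, second start: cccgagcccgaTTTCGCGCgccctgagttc
The stretches lie at chr17:42745137-42745166 on the minus strand for EZH1, chr7:148884272-148884301 on the minus strand for EZH2, chr17:31936807-31936836 on the plus strand for SUZ12 and chr19:10194937-10194966 on the minus strand for DNMT1. Those of UHRF1 lie at chr19:4909476-4909505 and chr19:4909973-4910002 on the plus strand. The first capital was at base -115 for EZH1, -189 for SUZ12 and -2 for DNMT1, and at -14 and -160 for the UHRF1 starts, counted back from the start. In EZH2 it was at base 2, where the start is base 1.

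The same letters occurred in 3.31% of 35116 RefSeq windows of this length, and in 5.94% of the 9191 windows with at least 28 CpG. Among the 10 genes the share was 30% of windows, and among 17 replication genes with a RefSeq window it was 50% of 22 windows, in 10 genes. Windows of one gene overlap in part and are not independent. The GATA motif, searched as those letters with A or T before them and A or G after them on both strands, was in 25% of all windows, 5.6% of those with at least 28 CpG and 5% of the 20 windows of the 10 genes (1 gene, EED). The letters CACGTG were in 7.26% of all windows, 10.5% of those with at least 28 CpG and 20% of the 20 windows (3 genes, DNMT3A, TET2 and TET3). Of the 20 windows, 13 held at least 28 CpG. A match is a description of the letters in a window, not evidence of binding. The window of DNMT3B held 3 CpG and that of EED 16 CpG, against a median of 14 CpG over all windows, while the single windows of EZH1, SUZ12 and DNMT1 held 30, 40 and 30 CpG.

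The catalytic subunits of PRC2 both fell. EZH2 (ENSG00000106462, chromosome 7, 148807257 to 148884321, minus strand) is the form typical of dividing cells. It was measured at 42.16 and 45.12 FPKM in the sh-NC libraries, against 17.35 and 18.22 FPKM after knockdown. The groups did not overlap, and the replicates of each group lay close together. The mean went from 43.6 ± 2.097 (SD, n = 2) to 17.8 ± 0.618 FPKM (SD, n = 2), 40.8% of the control (log2 fold change -1.25, SE 0.0559, limma adjusted p = 0.000158). It rested on 3085 and 3009 recovered reads of the sh-NC libraries and on 1257 and 1247 of the sh-LDB1 libraries.

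EZH1 (ENSG00000108799, chromosome 17, 42700275 to 42745049, minus strand) is the relative of EZH2 that also serves in resting cells. It was measured at 13.64 and 13.7 FPKM in the sh-NC libraries, against 7.262 and 6.696 FPKM after knockdown. The sh-NC libraries were nearly equal and both lay above the sh-LDB1 libraries. The fall was to 51.0% of the control (log2 fold change -0.88, SE 0.0589, limma adjusted p = 0.000394). The ratio of EZH2 to EZH1 was 3.09 and 3.29 in the sh-NC libraries against 2.39 and 2.72 in sh-LDB1, a log2 difference of -0.32. With 2 against 2 libraries the exact two-sided permutation p was 0.333, the smallest that the design can give, so no difference in this ratio could be shown by that test.

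The scaffold subunits fell as well, by unequal amounts. EED (ENSG00000074266, chromosome 11, 86201212 to 86278813, plus strand) binds the trimethylated histone and stimulates the enzyme. It was measured at 9.829 and 9.685 FPKM in the sh-NC libraries, against 5.053 and 4.992 FPKM after knockdown. These groups were apart, at 51.5% of the control (log2 fold change -0.84, SE 0.0525, limma adjusted p = 0.000335). SUZ12 (ENSG00000178691, chromosome 17, 31937007 to 32001038, plus strand) is the platform on which the accessory subunits assemble. It was measured at 24.13 and 25.81 FPKM in the sh-NC libraries, against 17.97 and 18.23 FPKM after knockdown. SUZ12 kept 72.5% of the control level, the smallest of the 8 falls (log2 fold change -0.44, SE 0.0523, limma adjusted p = 0.00203), and its groups did not overlap. Whether SUZ12 fell less than the other subunits was not tested.

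PRC2 takes on accessory subunits that set where it binds. Of 10 listed cofactors, 9 were in the table and tested, 4 fell and 4 rose, with a median log2 fold change of 0.24, against -0.08 over all genes. The shares over all genes tested were 37.4% called lower and 29.9% higher, with 10.3% lower beyond 2-fold. Without sh-LDB1 replicate 2, the number that rose went from 4 to 2. The 4 that fell were called beyond 2-fold, and of these limma's test against the 2-fold limit called PHF19 (adjusted p = 0.00697) but not RBBP4 (0.0511), MTF2 (0.11) or RBBP7 (0.166). RBBP4, a histone-binding subunit shared with other chromatin complexes, was measured at 19.15 and 19.94 FPKM in the sh-NC libraries, against 7.632 and 7.9 FPKM after knockdown (log2 fold change -1.23, SE 0.0512, limma adjusted p = 0.000145). Its relative RBBP7 was at 37.18 and 34.85 FPKM and then at 15.23 and 15.9 FPKM (log2 fold change -1.16, SE 0.0544, limma adjusted p = 0.000175). In both genes the groups did not overlap.

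The Polycomb-like proteins PHF1, MTF2 and PHF19, which bring PRC2 to CpG-rich DNA, did not move together. PHF19 was measured at 74.18 and 74.88 FPKM in the sh-NC libraries, against 27.76 and 28.96 FPKM after knockdown (log2 fold change -1.36, SE 0.0428, limma adjusted p = 9.7e-05). MTF2 was at 9.621 and 11.33 FPKM and then at 3.56 and 2.617 FPKM (log2 fold change -1.49, SE 0.145, limma adjusted p = 0.0011). PHF1 was measured at 20.07 and 17.86 FPKM in the sh-NC libraries, against 40.25 and 41.74 FPKM after knockdown (log2 fold change 1.08, SE 0.069, limma adjusted p = 0.000354). PHF1 was not called against the 2-fold limit. In FPKM, PHF19 was the most abundant of the 3 in sh-NC, and PHF1 was the most abundant in sh-LDB1. JARID2 and AEBP2, named here after their values were seen, mark the other form of PRC2. JARID2 rose from 24.16 and 24.71 FPKM to 41.93 and 41.3 FPKM (log2 fold change 0.74, SE 0.041, limma adjusted p = 0.000243). AEBP2 was at 3.789 and 3.89 FPKM and then at 5.138 and 5.863 FPKM (log2 fold change 0.42), and its limma adjusted p went from 0.00965 to 0.0582 without sh-LDB1 replicate 2. The fourth rise was EPOP, also named after its value was seen, whose call was lost under 6 of the alternatives. LCOR was not called, but was called higher under 4 of the alternatives. EZHIP was not found by that name in the expression table.

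**Figure D3:**
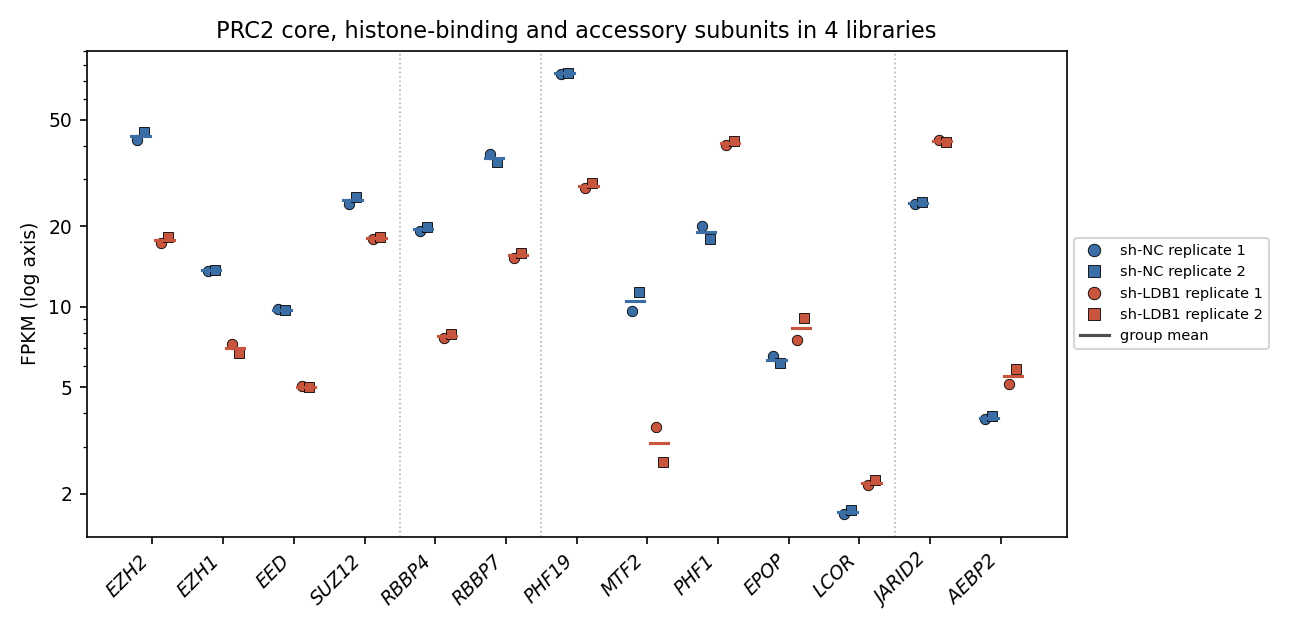
Level of the PRC2 core genes, the histone-binding subunits and the accessory subunits in the 4 libraries, in FPKM on a log axis, with sh-NC in blue, sh-LDB1 in red and lines at the group means. The red symbols are below the blue ones for the core genes, RBBP4, RBBP7, PHF19 and MTF2, and above them for PHF1, EPOP, LCOR, JARID2 and AEBP2.

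PRC1, the Polycomb complex that ubiquitinates histone H2A, had subunits that changed in both directions. Of 20 listed subunits, 19 were tested, 5 fell, 8 rose and 6 were not called, with a median log2 fold change of 0.10, where 37.4% and 29.9% of all genes tested were called lower and higher. PCGF6, a subunit of a variant PRC1, was measured at 9.594 and 10.73 FPKM in the sh-NC libraries, against 2.2 and 2.329 FPKM after knockdown (log2 fold change -1.77, SE 0.0786, limma adjusted p = 0.000157). It was called beyond 2-fold, also against the 2-fold limit (limma adjusted p = 0.00459), and its groups did not overlap. PHC1 was under the filter. Without sh-LDB1 replicate 1, the number that rose went from 8 to 5.

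Over all genes tested, 29.9% were called higher and 37.4% lower. Of 6 enzymes that erase the PRC2 or the PRC1 mark, with their partners, 5 were tested, 3 rose and 0 were called lower by limma, with 1 lower at an unadjusted p below 0.05. The 2 others, KDM6A and ASXL1, had limma adjusted p values of 0.0802 and 0.0542, and both were called lower with voom on recovered reads. KDM6B, a demethylase of lysine 27 on histone H3, was measured at 6.794 and 6.998 FPKM in the sh-NC libraries, against 16.37 and 16.15 FPKM after knockdown (log2 fold change 1.13, SE 0.0488, limma adjusted p = 0.000152). It was called beyond 2-fold, though not by the test against the 2-fold limit (limma adjusted p = 0.221), while EZH1 and EZH2, which write the mark, fell. BAP1 and ASXL2, the other rises, are named after their values were seen. BAP1 had a log2 fold change of 0.41 (limma adjusted p = 0.00284) and ASXL2 one of 0.29 (limma adjusted p = 0.0223). The call of ASXL2 was lost with no filter on low values (limma adjusted p = 0.05065). Without sh-NC replicate 1 its log2 fold change was 0.22. ASXL3 was at 0 in both sh-NC libraries and under the filter.

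Among the DNA methyltransferases, the maintenance enzyme kept the larger share of its level. DNMT1 (ENSG00000130816, chromosome 19, 10133342 to 10231286, minus strand) was measured at 44.2 and 43.85 FPKM in the sh-NC libraries, against 28.44 and 27.55 FPKM after knockdown. The mean went from 44.03 ± 0.246 (SD, n = 2) to 27.99 ± 0.631 FPKM (SD, n = 2), 63.6% of the control. The groups did not overlap (log2 fold change -0.64, SE 0.0416, limma adjusted p = 0.000373). DNMT1 had the deepest coverage of the 10 genes, with 4083 to 7007 recovered reads per library. It shares a stretch on the same strand with S1PR2, a sphingosine phosphate receptor, which had 52 to 166 recovered reads.

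UHRF1 (ENSG00000276043, chromosome 19, 4903080 to 4962154, plus strand), which recognises hemimethylated DNA and recruits DNMT1, had the widest spread of the genes that fell. It was measured at 20.17 and 16.49 FPKM in the sh-NC libraries, against 11.21 and 11.93 FPKM after knockdown. The sh-NC libraries differed from each other by more than the sh-LDB1 libraries did, and the groups still did not overlap. The sh-LDB1 mean was 63.1% of the control (log2 fold change -0.61, SE 0.106, limma adjusted p = 0.00685).

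The enzymes of new methylation fell to a lower share. DNMT3B (ENSG00000088305, chromosome 20, 32762385 to 32809359, plus strand) was measured at 28.61 and 27.99 FPKM in the sh-NC libraries, against 10.31 and 11.69 FPKM after knockdown. All sh-LDB1 values were far under the sh-NC values, at 38.9% of the control mean (log2 fold change -1.29, SE 0.0708, limma adjusted p = 0.00024). DNMT3A (ENSG00000119772, chromosome 2, 25227855 to 25342590, minus strand) was measured at 4.329 and 3.893 FPKM in the sh-NC libraries, against 1.267 and 1.248 FPKM after knockdown. That is 30.6% of the control, the lowest share of the 10 genes. The log2 fold change was -1.18 (SE 0.0925, limma adjusted p = 0.000605) on the log2(FPKM + 1) scale, and -1.71 with voom on 842 and 690 recovered reads in sh-NC, against 244 and 227 reads in sh-LDB1. The ratio of DNMT1 to DNMT3A was 10.2 and 11.3 in the sh-NC libraries against 22.4 and 22.1 in sh-LDB1, a log2 difference of 1.05. The exact two-sided permutation p of this ratio was 0.333, the smallest possible here.

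The TET genes were the exceptions. TET2 (ENSG00000168769, chromosome 4, 105145875 to 105279816, plus strand) was measured at 1.005 and 1.12 FPKM in the sh-NC libraries, against 1.5 and 1.428 FPKM after knockdown. The sh-LDB1 libraries were both higher, at 138% of the control, but the difference was not called (log2 fold change 0.26, SE 0.123, limma adjusted p = 0.128). It was called without the trend of variance on level (adjusted p = 0.0259) and with voom on recovered reads (log2 fold change 0.47, adjusted p = 0.00135). TET2 had 268 and 272 recovered reads in sh-NC, against 396 and 356 reads in sh-LDB1. Its antisense partner TET2-AS1 was at 0 reads in both sh-NC libraries and at 15 and 8 reads in sh-LDB1, and reads of the pair cannot be told apart without strand, whose use is not given in the sources used here.

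TET3 (ENSG00000187605, chromosome 2, 73984910 to 74108176, plus strand), the more abundant of the pair, was measured at 12.55 and 11.33 FPKM in the sh-NC libraries, against 11 and 10.73 FPKM after knockdown. The groups were adjacent without overlap, and the difference of the means was smaller than the gap between the sh-NC replicates (91.0% of the control, log2 fold change -0.12, SE 0.0658, limma adjusted p = 0.16). A p above the threshold does not show that TET3 stayed the same. The ratio of TET2 to TET3 was 0.0801 and 0.0988 in the sh-NC libraries against 0.136 and 0.133 in sh-LDB1, a log2 difference of 0.60 (exact two-sided permutation p = 0.333, the smallest possible). TET1, named after its value was seen, is the third member of the family and behaved otherwise. It fell from 6.653 and 6.615 FPKM to 3.73 and 3.75 FPKM (log2 fold change -0.69, SE 0.0581, limma adjusted p = 0.000739). Differences between the changes of TET genes were not tested.

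The order of the 10 levels differed between the groups. In sh-NC, DNMT1 and EZH2 overlapped at the top, followed by DNMT3B, SUZ12, UHRF1, EZH1, TET3, EED, DNMT3A and TET2, with no overlap between neighbours from DNMT3B downwards. In sh-LDB1, DNMT1 was alone at the top, EZH2 overlapped with SUZ12, DNMT3B overlapped with UHRF1 and TET3, and TET2 lay above DNMT3A. These levels depend on the gene lengths behind the FPKM. The length fitted to EZH2 was 4522 bases, while all annotated exons of EZH2 in GENCODE 44 come to 10774 bases. On annotated lengths the sh-NC mean would be 18.3 FPKM for EZH2, 28.04 FPKM for DNMT1, 19.1 FPKM for DNMT3B and 24.95 FPKM for SUZ12, so EZH2 would not share the top. The ratio of a gene's group means does not depend on the length, while its change on the log2(FPKM + 1) scale does in part, through the added 1.

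The listed cofactors of DNA methylation, taken with genes of its removal such as TET1 and TDG, mostly fell. Of 10 listed genes, 8 were tested, 6 fell, 1 rose and 1 was not called. Of all genes tested, 37.4% were called lower and 29.9% higher. The median log2 fold change of the list was -0.62. CDCA7 and HELLS, which form a nucleosome remodeler that DNA methylation of compact chromatin needs, fell beyond 2-fold. CDCA7 was measured at 47.31 and 49.14 FPKM in the sh-NC libraries, against 8.361 and 7.509 FPKM after knockdown, 16.4% of the control (log2 fold change -2.46, SE 0.0648, limma adjusted p = 8.1e-05). HELLS was at 3.489 and 3.943 FPKM and then at 1.169 and 1.198 FPKM (log2 fold change -1.11, SE 0.0986, limma adjusted p = 0.000864). The groups of both genes were far apart. The test against the 2-fold limit called CDCA7 (limma adjusted p = 0.00058) and did not call HELLS. The others that fell were TET1, UHRF2, USP7 and CXXC5, at log2 fold changes of -0.69 to -0.53. The single rise was TDG, which excises oxidised methylcytosine, and its call was lost under 4 of the alternatives. DNMT3L was at or near 0 in all libraries, at no more than 0.073 FPKM, and CXXC4 was also under the filter.

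Of 8 readers of methylated CpG, 3 fell and 3 rose, none beyond 2-fold, with a median log2 fold change of 0.02. These counts were near the shares over all genes tested, 37.4% called lower and 29.9% higher. ZBTB4, a zinc finger reader, had the smallest p of the list, at 3.631 and 3.243 FPKM in sh-NC and 7.326 and 6.462 FPKM in sh-LDB1 (log2 fold change 0.83, SE 0.0897, limma adjusted p = 0.00154). Without sh-LDB1 replicate 2, 1 reader was called lower and 1 higher, without sh-LDB1 replicate 1 there was 1 called higher, and with equal summed FPKM there was 1 called lower.

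The enzymes that supply the methyl donor S-adenosylmethionine, with the isocitrate dehydrogenases whose product the TET enzymes use, gave 6 falls and 0 rises by limma among 11 genes tested, with a median log2 fold change of -0.32. The shares over all genes tested were 37.4% called lower and 29.9% higher. Of the list, 1 was higher at an unadjusted p below 0.05, and voom called 2 higher. MAT2A, which makes the donor, was measured at 169.0 and 169.6 FPKM in the sh-NC libraries, against 62.86 and 62.85 FPKM after knockdown (log2 fold change -1.42, SE 0.0367, limma adjusted p = 8e-05). AHCY, which clears the product left by methylation reactions, was at 72.59 and 74.6 FPKM and then at 19.73 and 19.81 FPKM (log2 fold change -1.84, SE 0.0405, limma adjusted p = 7e-05). MTR, methionine synthase, was at 14.25 and 14.65 FPKM and then at 3.825 and 4.003 FPKM (log2 fold change -1.65, SE 0.0551, limma adjusted p = 0.000106). These 3 were the genes of the list called beyond 2-fold, also against the 2-fold limit, and their replicates lay close together. IDH1 and IDH2 were at 112% and 111% of the control and were not called (limma adjusted p = 0.118 and 0.0505). Both were called higher under either rescaling of the libraries and with voom. IDH3A is named after its value was seen. It fell from 3.5 and 3.583 FPKM to 2.403 and 2.351 FPKM (log2 fold change -0.43, limma adjusted p = 0.00721).

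**Figure D4:**
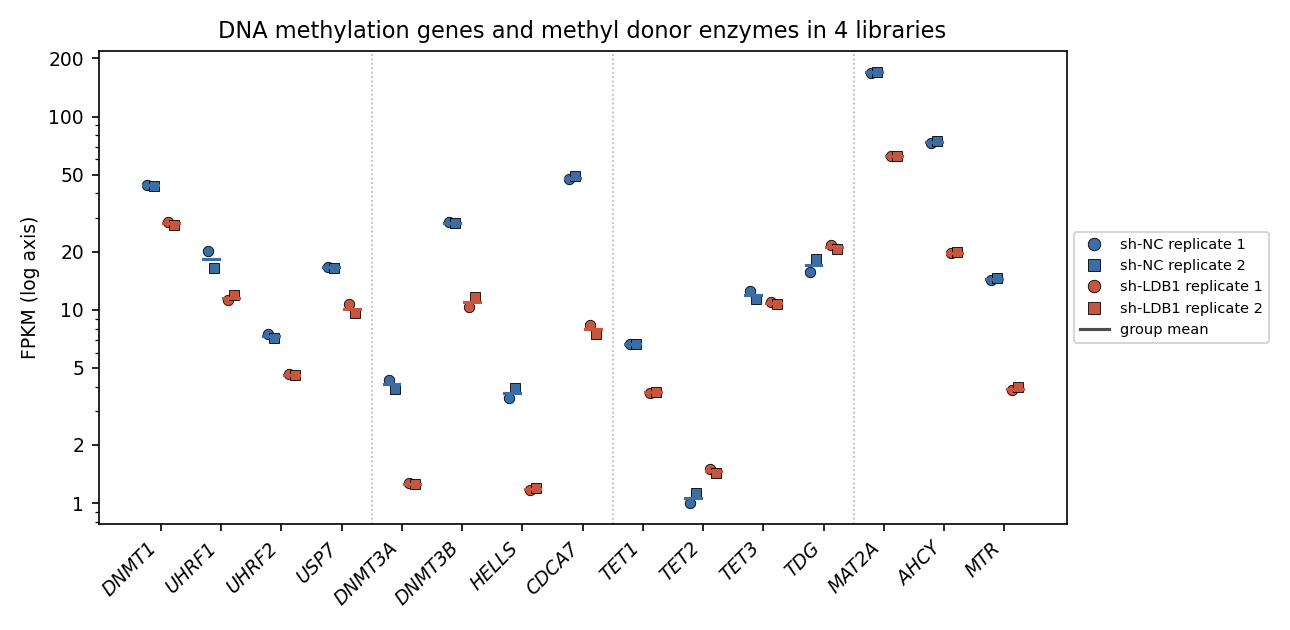
Level of DNA methylation genes, TET genes, TDG and 3 methyl donor enzymes in the 4 libraries, in FPKM on a log axis, with sh-NC in blue, sh-LDB1 in red and lines at the group means. CDCA7 goes from 47.31 and 49.14 FPKM to 8.361 and 7.509 FPKM, MAT2A, AHCY and MTR fall with tight replicates, and TET2 and TDG have red symbols above blue ones.

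Transcripts of DNA replication fell beside those of the methyltransferases. All 20 replication and proliferation genes fell, 16 of them beyond 2-fold, with a median log2 fold change of -1.23. Over all genes tested, 37.4% were called lower, and 10.3% lower beyond 2-fold. Their summed level was 1535 and 1570 FPKM in sh-NC and 614.6 and 629.3 FPKM in sh-LDB1. The largest changes were those of TOP2A, a topoisomerase (-2.15), CHAF1A, a chromatin assembly factor (-2.04), and the helicase subunits MCM6 and MCM4 (-1.94 each). TOP2A was measured at 112.2 and 115.6 FPKM in the sh-NC libraries, against 24.8 and 24.93 FPKM after knockdown (limma adjusted p = 6.8e-05). EZH2, DNMT1 and UHRF1 are known to be more abundant in dividing cells, and they moved in the direction of this list. The part of proliferation in the falls of the 10 genes was not tested.

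**Figure D5:**
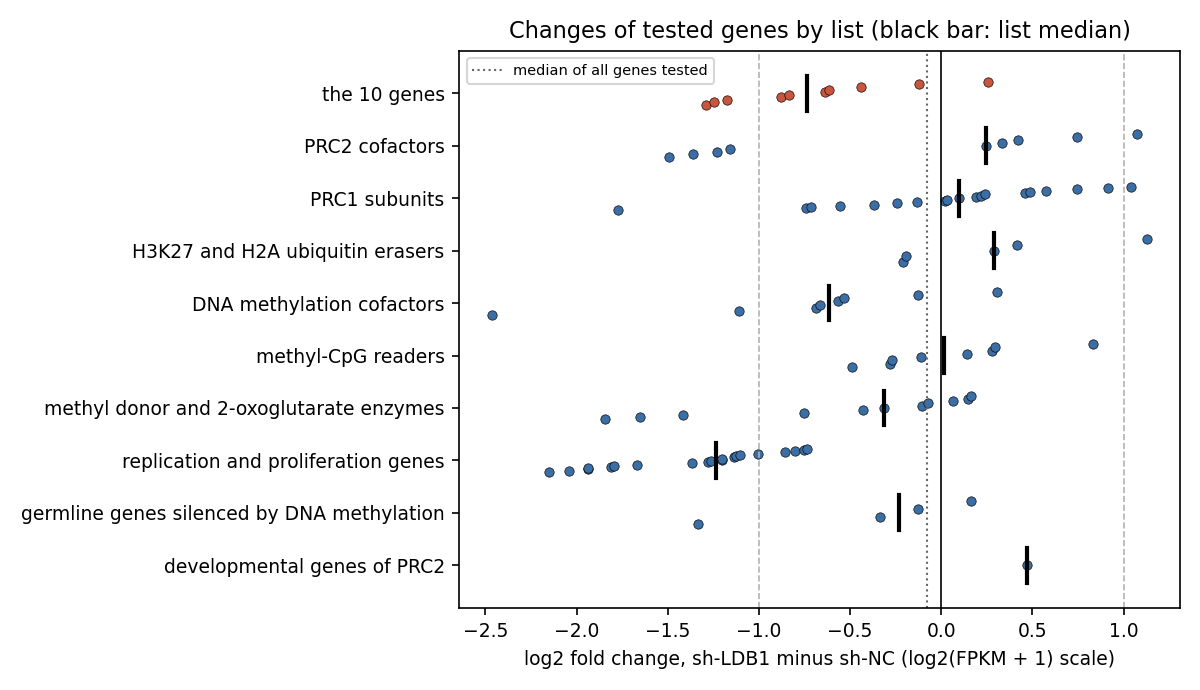
Log2 fold change of each tested gene, sh-LDB1 minus sh-NC on the log2(FPKM + 1) scale, by gene list, with a black bar at the median of each list, dashed lines at 2-fold and a dotted line at the median of all genes tested (-0.08). The 10 genes have a median of -0.74 and the replication genes one of -1.23, while PRC2 cofactors and PRC1 subunits lie on both sides of 0.

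To see whether genes that these enzymes keep silent in other settings were expressed, germline genes and developmental genes were examined. Of 20 germline genes that DNA methylation is known to silence, 9 were in the table and 4 were tested. Over all genes tested, 37.4% were called lower and 29.9% higher. Genes of at least 1 FPKM numbered 4 in each sh-NC library and 2 in each sh-LDB1 library. MAGEA3, MAGEB2 and TEX11 are named after their values were seen. MAGEA3, a cancer-testis antigen, was already at 102.5 and 91.02 FPKM in sh-NC and was at 91.46 and 85.16 FPKM in sh-LDB1, with overlap of the groups (log2 fold change -0.13, SE 0.076, limma adjusted p = 0.197). SOHLH2, a germ cell transcription factor, fell from 2.109 and 2.614 FPKM to 0.331 FPKM in both sh-LDB1 libraries (log2 fold change -1.33, SE 0.146, limma adjusted p = 0.0016). By limma and by voom 0 of the tested germline genes were called higher, with 1 higher at an unadjusted p below 0.05, and 1 was called higher under each rescaling of the libraries. The 1 at the unadjusted p was MAGEB2, with 16.12 and 16.17 FPKM in sh-NC, then 19.04 and 17.45 FPKM (log2 fold change 0.16, limma adjusted p = 0.0617). TEX11, with 1.228 and 1.287 FPKM in sh-NC, then 0.778 and 0.804 FPKM, was not called. SYCP3, STK31, PIWIL2, MAGEA1 and MAGEA4 were under the filter. Recovered reads of STK31 rose from 24 and 25 (sh-NC) to 51 and 57 (sh-LDB1), which is 219% of the control in FPKM. Those of SYCP3 went the other way, from 18 and 26 to 11 in both sh-LDB1 libraries. The groups did not overlap for either gene. PIWIL2, MAGEA1 and MAGEA4 had at most 6 reads per library. With no filter on low values, limma called 0 germline genes higher and 1 lower.

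Of 22 developmental genes that PRC2 is known to repress in stem cells, 9 were in the table and 1, WT1, was tested. WT1, a zinc finger factor often expressed in leukemia, rose from 6.806 and 6.941 FPKM to 9.682 and 10.15 FPKM, and the groups did not overlap (log2 fold change 0.47, SE 0.0546, limma adjusted p = 0.0019). The other 8 were under the filter. Among them, GATA6 and FOXA1, named after their values were seen, moved opposite to WT1 without overlap of the groups. Recovered reads of GATA6 fell from 47 and 44 (sh-NC) to 8 and 15 (sh-LDB1). Those of FOXA1 fell from 45 and 70 to 17 and 19. The groups of PAX6 overlapped, and the remaining genes had at most 9 reads per library. With no filter on low values, limma called 1 developmental gene lower and 1 higher. Of the 9 developmental genes, 1 or 2 per library reached 1 FPKM. The lists say nothing of genes that were not analysed here.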

How the data were processed

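RNA-seq of 4 libraries was analysed, with groups and replicate numbers taken from the labels. After read filtering, the authors mapped with HISAT2 2.0.5 to hg38 (per the submitters' processing notes) and deposited 1 table of FPKM per gene and library. Annotation, counting and strand use are not given in the sources used here. Levels were taken as log2(FPKM + 1), and genes whose mean reached 1 FPKM were tested. The fit was made in R 4.3.3 with limma 3.58.1, using eBayes with a variance trend and without a replicate block. Adjustment followed Benjamini-Hochberg over all 13300 genes. Calls needed an adjusted p below 0.05, and beyond 2-fold a fold change above 2 or below 0.5.

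Reads were recovered from the steps of the FPKM values with GENCODE 44 lengths. They came out whole, within 0.01, in all 4 libraries for 98.78% of genes. Intervals of counting error were not used.

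The 10 genes and all lists were chosen with earlier results of these data known. Named genes were the 10, LDB1, and list genes past both thresholds (the 4 largest changes where more than 6 passed; the smallest adjusted p where none did). Other genes were named after their values were seen. Alternatives were other pseudocounts, filters and scalings, no trend, voom, the block, a 2-fold null and leaving out each library. The fits and the recovery were tested on simulated data. A further gene that this rule named is not reported here.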

Additional observations from a re-analysis of the deposited data

How the results depend on the processing

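The direction and the call of EZH1, EZH2, EED, SUZ12, DNMT1, DNMT3A, DNMT3B and UHRF1 held under every alternative that gave a value, with limma adjusted p values of up to 0.0456 (UHRF1 without sh-LDB1 replicate 1). DNMT3A and TET2 have no value under the filter of 5 FPKM. TET3 reversed to 0.035 with equal summed FPKM. Of the 10 genes, 1, TET2, was called higher with no trend and with voom. The number lower beyond 2-fold was 0 when tested against 2-fold. With the replicate block, 8 of the 10 genes were lower, 0 higher and 3 lower beyond 2-fold, and no call on the 10 genes changed. The deviations of replicate 1 of both groups correlated at 0.0196 over 13300 genes, so the numbers do not pair the libraries.

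Counts in short lists moved more. Leaving out 1 library gave 2 to 4 PRC2 cofactors higher, 5 to 8 PRC1 subunits higher, 0 to 1 DNA methylation cofactors higher, 1 to 2 methyl-CpG readers lower and 1 to 3 higher, and 0 to 1 methyl donor enzymes higher. In the list of DNA methylation cofactors and genes of its removal, where TDG was the single rise, 0 were higher with no filter and with no trend. Methyl-CpG readers lower numbered 1 with equal summed FPKM. Methyl donor enzymes higher numbered 1 with a pseudocount of 0.01 or a filter of 5 FPKM, 2 with total recovered reads or voom, and 3 with equal summed FPKM. Erasers lower numbered 2 with voom, and erasers higher numbered 2 with no filter. Germline genes lower numbered 0 with the filter of 5 FPKM and 2 with no trend or voom, and germline genes higher numbered 1 with that filter and with both scalings. Developmental genes lower numbered 1 with no filter. The cause was not tested. TET2 and DNMT3A rest on the fewest recovered reads of the 10 genes, 268 to 396 and 227 to 842 per library, and with 2 libraries per group a single library carries a large weight.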
